A study of Mus musculus with 21 samples.

Results

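Cytosolic ribosomal protein genes encode the proteins that, with the ribosomal RNAs, build the cytosolic ribosome. Members were all gene symbols of the count files made of Rpl or Rps and a number, with or without a closing letter and digits, plus Rplp0, Rplp1, Rplp2 and Rpsa. This rule gave 84 of the 24391 genes counted, 51 of the large subunit and 33 of the small subunit, and it used no measured value. The RNA came from newborn (P0) C57BL/6 mice (C57BL/6J in the study's methods), 2 Jak1 knock-in (KI) and 5 wild-type (WT), with brain, liver and skin sequenced as separate libraries, 21 in all. The labels do not say whether libraries of the same number in different tissues come from the same mouse. KI mice were heterozygous for H595D, a substitution in the tyrosine kinase JAK1 that the study examined for kinase hyperactivity, together with the synonymous changes I596I and Y597Y, and WT mice carried none of them. The study obtained KI newborns from a mosaic KI male that passed the alleles on. Its methods give the RNA of the skin a lower integrity than that of samples they name as blood and liver, and name no value for brain.

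Ribosomal proteins are needed in near equal numbers, and nearly all are made in every cell. Their mRNAs are short, abundant and mostly start with a C followed by a run of pyrimidines, the 5′ terminal oligopyrimidine (TOP) tract through which mTOR and LARP1 adjust translation to nutrients and growth signals. Each gene has left many processed pseudogenes, intronless copies of its mRNA scattered over the genome, and a few genes have expressed paralogs that are used mainly in particular tissues.

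The start sites and the coding sequences show what these genes share and how paralogs differ. RefSeq promoters (build GRCm38.p6) were matched by symbol for 63 members with 75 start sites. The 4 windows below run from 10 bases before the start to 20 bases from it, are given on the strand of the gene, and have the longest pyrimidine run in capitals. They are examples that start with a C inside a run of 10 to 18 pyrimidines, from genes that return in the comparisons of tissues and levels. Other genes that return there lack such a start, among them Rpl4, Rps15 and Rpl24, which start with a G.
Rpl15, chr14:18270967-18270996, minus strand: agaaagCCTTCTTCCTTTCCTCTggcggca
Rpl28, chr7:4792955-4792984, plus strand: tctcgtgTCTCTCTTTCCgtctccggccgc
Rpl35, chr2:39005112-39005141, minus strand: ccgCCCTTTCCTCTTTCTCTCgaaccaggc
Rps6, chr4:86857348-86857377, minus strand: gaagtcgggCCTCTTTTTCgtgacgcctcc
A run of at least 6 pyrimidines lay in this window for 53.3% of the member starts and for 28.7% of the 32851 starts of all genes. The annotated start was a C in 29.3% of member starts and in 16.3% of all starts. Searched on both strands of the 300 bases from 250 before to 50 after the start, CCGGAAG, a core bound by ETS factors, was present in 36% of member promoters against 8.86% of all promoters. AAGATGG, the core of the YY1 site, was present in 16% against 6.34%, and TATAAA, the TATA box, in 9.33% against 13.6%. The pyrimidine window and the ETS core thus occurred more often among members than among all genes in this table, as a description of the annotated starts.

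Rpl39 and Rpl39l, and Rps27 and Rps27l, are the 2 paralog pairs whose proteins are closest among the pairs described below with both genes counted. Their coding sequences in mm9 (GENCODE vM1 annotation) are printed with the bases that differ between the 2 members of a pair in capitals.
Rpl39, chrX:34622515-34625397, minus strand: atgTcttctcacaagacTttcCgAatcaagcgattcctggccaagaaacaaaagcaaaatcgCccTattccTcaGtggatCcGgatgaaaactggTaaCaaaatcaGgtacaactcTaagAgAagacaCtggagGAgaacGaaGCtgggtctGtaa
Rpl39l, chr16:10170319-10175004, plus strand: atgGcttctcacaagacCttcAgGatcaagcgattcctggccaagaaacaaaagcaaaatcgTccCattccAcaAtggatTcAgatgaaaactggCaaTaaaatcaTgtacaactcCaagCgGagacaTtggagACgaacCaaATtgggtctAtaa
Rps27, chr3:90016593-90017573, minus strand: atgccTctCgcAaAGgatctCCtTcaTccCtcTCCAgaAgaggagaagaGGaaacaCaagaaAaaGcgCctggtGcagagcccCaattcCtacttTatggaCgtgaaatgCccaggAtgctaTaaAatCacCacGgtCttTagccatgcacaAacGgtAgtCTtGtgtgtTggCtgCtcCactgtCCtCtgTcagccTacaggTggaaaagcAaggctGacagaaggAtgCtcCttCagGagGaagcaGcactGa
Rps27l, chr9:66793893-66797323, plus strand: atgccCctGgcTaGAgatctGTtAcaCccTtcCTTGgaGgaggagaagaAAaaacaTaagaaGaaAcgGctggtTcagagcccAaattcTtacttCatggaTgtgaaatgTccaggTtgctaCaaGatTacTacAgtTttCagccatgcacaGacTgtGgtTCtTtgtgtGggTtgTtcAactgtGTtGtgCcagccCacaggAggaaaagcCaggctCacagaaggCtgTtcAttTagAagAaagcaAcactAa
Rpl39 and Rpl39l differed at 23 of 156 coding bases and shared 48 of 51 residues. Rps27 and Rps27l differed at 61 of 255 coding bases and shared 81 of 84 residues. The coordinates are those of the genes, and the coding sequences are spliced.

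Counts on genes ranged from 26549326 to 38388133 per library, and alignments to more than 1 place, which were tallied apart and not assigned to genes, made up 17.1% to 25.4% of the reads tallied in a library. Levels of single genes across libraries are given in CPM, counts scaled to a common library size. Marker genes matched the labelled tissues, with the summed level of 5 neuron markers at 5213 to 7496 CPM in brain and at most 46.0 CPM elsewhere, that of 5 hepatocyte markers at 175190 CPM or more in liver and at most 2792 CPM elsewhere, and that of 5 epidermis markers at 850 to 16497 CPM in skin and at most 108 CPM elsewhere. Levels in CPM were scaled within each tissue by the trimmed mean of M values (TMM) unless the 3 tissues are compared. In these bulk tissues, fewer cells of a type and less RNA per cell cannot be told apart.

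Members took 0.478% to 1.22% of the counts on genes. The KI brain libraries had the lowest shares of all 21, at 0.492% and 0.478%. The WT brain libraries had 0.785%, 0.666%, 0.626%, 0.641% and 1.22%, so the groups did not overlap and WT 5 stood apart from the other WT brains. In liver the order was the opposite, with KI at 0.651% and 0.631% above the WT values of 0.587%, 0.557%, 0.555%, 0.554% and 0.537%. In skin the KI values of 0.947% and 0.886% lay within the WT range of 0.772% to 1.06%. The ratio of large-subunit to small-subunit counts was 1.18 in both KI brains and 1.04 to 1.11 in the 5 WT brains, without overlap, while KI and WT values overlapped in liver and skin. These shares carry no test, because the members were chosen with earlier results known.

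**Figure D1:**
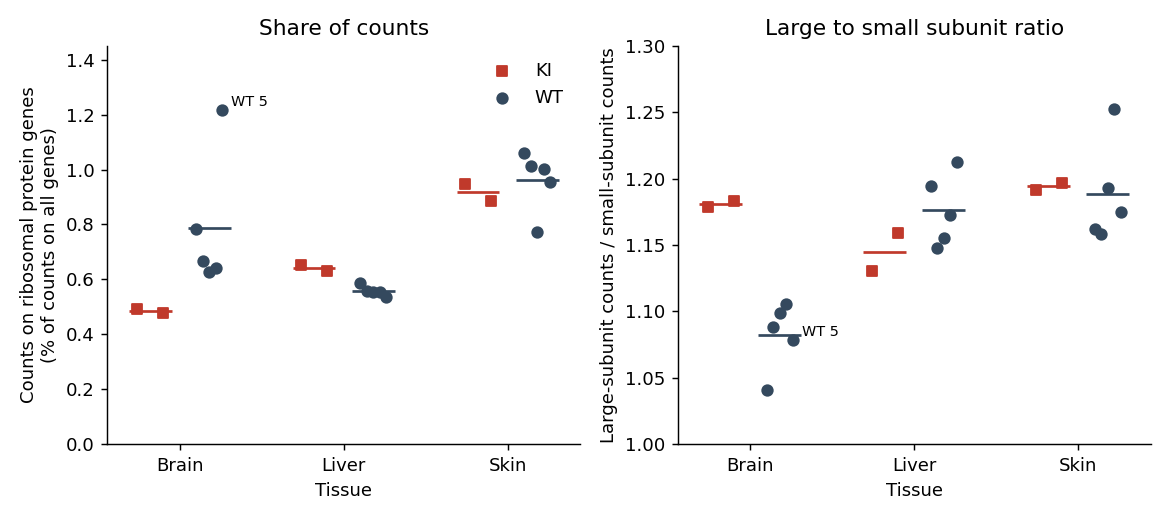
Each point is a library, with KI as red squares and WT as dark circles, and the lines are group means. The left panel plots the percentage of counts on genes taken by the 84 members and the right panel the ratio of large-subunit to small-subunit counts. The KI brains are lowest in the left panel, at 0.492% and 0.478%, and the WT 5 brain is highest, at 1.22%.

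The counts did not follow the near equal numbers in which ribosomal proteins are needed. In RPKM, counts scaled to library size and to kilobases of transcript, mean levels over the 15 WT libraries ran from 983 for Rpl8 to 0.709 for Rpl24 among members tested, and Rpl10l was at 0 counts and Rpl26 at 1 count over all 21 libraries. High levels were also those of Rps15 (665 RPKM), Rpl4 (573 RPKM) and Rpl32 (488 RPKM). The lowest after Rpl24 were those of Rpl11 (1.14 RPKM), which in its free form binds the p53 regulator MDM2, Rpl30 and Rpl35 (1.24 RPKM each) and Rps13 (1.41 RPKM). Rps6, the small-subunit protein phosphorylated by S6 kinase, was at 13.3 RPKM, and Rpl5, the partner of Rpl11 in the 5S ribonucleoprotein, at 6.75 RPKM. The stalk proteins Rplp0, Rplp1 and Rplp2, which recruit elongation factors, were at 248, 417 and 93.9 RPKM. Rpsa, also known as the laminin receptor precursor, was at 26.9 RPKM, and Rps27a, made as a fusion with ubiquitin, at 7.05 RPKM.

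How far the mRNA sequence recurs in the genome was measured as the percentage of a transcript's 75-base windows with an identical match elsewhere in mm9. The median was 47.9% over the 83 members with an annotated transcript and 0.821% over the 15920 genes tested that had one. It was below 10% for 13 members and at least 90% for 7. As an example, the following 75 bases of the Rps12 coding sequence, from coding base 325, had identical copies at 20 other places.
Rps12, mm9, gene at chr10:23504990-23507015, minus strand: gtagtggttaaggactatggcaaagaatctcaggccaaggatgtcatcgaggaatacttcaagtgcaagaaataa
Of the windows of Rps12 98.0% recurred and of those of Rps27 99.6%, with levels of 6.65 and 3.79 RPKM. Rps3, with 1.04% of windows recurring, stood at 427 RPKM. Across 81 members the percentage and log2 RPKM had Pearson r = -0.37 and Spearman rho = -0.36, a description across genes that share libraries and are not independent replicates. The tables do not say how many reads from recurring sequence were set apart for each gene, so the order of levels holds for what was counted, whereas the comparisons below set each gene against itself in other libraries.

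**Figure D2:**
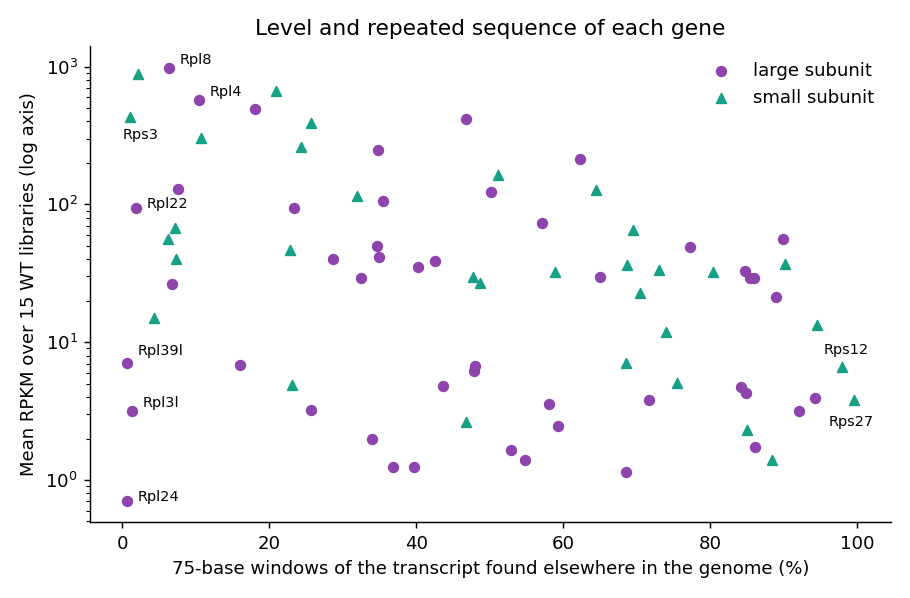
Each point is a member (81 in all), with large-subunit genes as purple circles and small-subunit genes as green triangles. The horizontal axis is the percentage of 75-base transcript windows found elsewhere in the genome and the vertical axis the mean RPKM over the 15 WT libraries on a log scale. Members with few recurring windows span the whole range of levels up to 983 RPKM, and the 2 with the most recurring windows, Rps12 and Rps27, lie at 6.65 and 3.79 RPKM.

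Some levels carry further uncertainty. The transcript with the longest coding sequence is a long or readthrough form for Rpl24 (4999 bases), Rps15a (5130 bases) and Rps20 (3706 bases), which lowers a level per length. With the coding length or the union of exons in place of the transcript length, Rpl30 stood at 3.15 or 0.363 RPKM and Rpl11 at 1.77 or 0.353 RPKM. With only the windows that do not recur as the length, chosen after seeing the data, Rps27, with 1 such window, moved from 3.79 to 1307 RPKM, Rps12, with 9, from 6.65 to 382 RPKM and Rps6, with 44, from 13.3 to 265 RPKM. On that length Rps13 stood at 13.9 RPKM, Rpl11 at 4.00 RPKM and Rps15 at 987 RPKM. Exons of 19 members share bases with another counted gene, among them Rpl35 with Wdr38 (66.2% of exon bases), Rpl23a with Tlcd1 (59.7%), Rpl31 with Tbc1d8 (39.5%) and Rpl13a with Flt3l (34.3%). The library kit does not mark strand, so reads of such neighbours on opposite strands cannot be told apart.

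Among WT tissues, the same genes were compared between brain, liver and skin of the 5 WT mice with edgeR's quasi-likelihood test, and 82 members passed the filter on low counts. A member was called at a Benjamini-Hochberg adjusted p under 0.1 over all 17071 genes tested. Against liver, 14 members were called higher in brain and 31 higher in liver, beside 43.3% and 40.2% of all genes. Against skin, 11 were called higher in brain and 34 higher in skin, beside 39.1% and 40.3% of all genes. Between liver and skin, 7 were called higher in liver and 12 higher in skin, beside 32.5% and 39.8% of all genes.

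The median log2 difference of members was -0.23 for brain against liver (0.06 over all genes), -0.33 for brain against skin (-0.02) and -0.11 for liver against skin (-0.10). The scaling between tissues changed these counts. With library totals alone in place of TMM, the median of all genes moved by 0.79 for brain against liver and by -0.71 for liver against skin, and the calls turned to 50 higher and 1 lower, and to 0 higher and 71 lower. Of the members called, 31.1% were higher in brain than in liver under TMM, 40.5% under DESeq2 size factors and 98.0% under library totals. For brain against skin these shares were 24.4%, 31% and 31.7%, and for liver against skin 36.8%, 38.9% and 0%. The median of members minus that of all genes was -0.29 under TMM and -0.30 under library totals for brain against liver, -0.30 under both for brain against skin, and -0.01 under both for liver against skin.

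The member that stood out most in brain was Rpl15, a large-subunit protein. Its level was 100.2, 99.5, 85.7, 87.8 and 130 RPKM in the brains of WT 1 to 5, 22.9, 19.1, 22.1, 19.5 and 24.2 RPKM in liver and 30.5, 28.9, 24.2, 25.4 and 30.5 RPKM in skin. The brain values were all above those of the other tissues, with a log2 difference of 2.22 (SE 0.13) from liver and 1.85 (SE 0.13) from skin. Its exons share 4.38% of their bases with Nkiras1 on the other strand. Rps15a was higher in brain as well, with a log2 difference of 1.61 (SE 0.12) from liver and 1.75 (SE 0.12) from skin, also without overlap. Rpl36a was higher in brain than in liver by a log2 difference of 1.65 (SE 0.35) and Rpl28 higher than in skin by 1.40 (SE 0.39), both at low levels of 5.49 and 2.71 RPKM in brain.

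Rps27l, which is induced by p53 in many cells, was lower in brain than in liver by a log2 difference of -1.57 (SE 0.15), without overlap. Rpl39l and Rpl3l were at most at 0.584 and 0.557 RPKM in any WT brain or liver and at 2.01 to 29.2 RPKM in WT skin, as a description. Both passed the filter on low counts through skin and were among the 82 members tested. No size or test of their difference from skin is therefore given. Rpl39l had 0 to 7 counts in WT brains and 3 to 10 in WT livers, and Rpl3l had 2 to 12 and 1 to 17. No difference between brain and liver is drawn for these 2 genes, although Rpl39l is among the 31 members called higher in liver. Higher in liver than in skin were Rpl34 (0.96, SE 0.30), Rps27a (0.88, SE 0.21) and Rps2 (0.62, SE 0.22), of which none was called with library totals and Rps2 was also lost without WT 1.

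Among the paralogs, Rpl39l and Rpl3l were counted almost only in skin. A paralog protein takes the place of its parent in the ribosome or, in some cases, has other roles, and Rpl3l and Rpl39l are known from muscle and testis. In WT skin Rpl39l was at 26.4, 14.4, 13.9, 29.2 and 20.5 RPKM and Rpl39 at 39.8, 34.6, 24.3, 23.7 and 31.4 RPKM. The ratio of paralog to parent was 0.417 to 1.23 in WT skin, while in brain and liver of either genotype it was at most 0.0234. Rpl39l has 0.684% of windows recurring and Rpl39 32.5%.

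Rpl3l, expressed mainly in skeletal and heart muscle, was at 7.84, 2.01, 12.03, 10.1 and 13.7 RPKM in WT skin. Beside it, the summed level of 5 skeletal muscle markers (Acta1, Ckm, Mylpf, Tnnt3 and Myh3) in the same libraries was 10513, 4511, 12086, 18019 and 14022 CPM, with WT 2 lowest in both, and it was at most 53.3 CPM in brain and 9.09 CPM in liver. All 5 markers were counted in each tissue, none of them was called between KI and WT skin, and their part in the level of Rpl3l was not tested.

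Rpl22 and Rpl22l1, of which Rpl22 is known to hold down Rpl22l1 in mouse cells, were of like RPKM in WT brain and liver. The ratio of Rpl22l1 to Rpl22 was 0.679 to 1.01 in WT brain, 0.870 to 1.36 in WT liver and 0.394 to 0.694 in WT skin. Of the windows of Rpl22 1.82% recurred and of those of Rpl22l1 57.1%. With only the windows that do not recur as the length, mean WT levels were 99.4 RPKM for Rpl22 and 203 RPKM for Rpl22l1. Rps27l exceeded Rps27 in every library, by 3.89 to 41.2 times, with Rps27 at only 16 to 86 counts and nearly all of its windows recurring. Rps4l, which RefSeq lists as a transcribed pseudogene and which has 1 exon on chromosome 6, stood at 0.655 to 0.995 of Rps4x in WT brain and at 0.296 to 0.498 in WT liver and skin. Of the windows of Rps4l 7.13% recurred and of those of Rps4x 64.5%. On the windows that do not recur, mean WT levels were 78.1 RPKM for Rps4l and 387 RPKM for Rps4x. The ratios of paralog to parent thus hold for what was counted. Rpl7l1, a more distant relative with 40.0% identical residues, stayed at 0.155 to 0.298 of Rpl7 in all 21 libraries. Proteins of the other pairs were identical at 70.3% of residues (Rpl22 and Rpl22l1), 76.0% (Rpl3 and Rpl3l), 92.8% (Rps4x and Rps4l) and 98.6% (Rpl10 and the uncounted Rpl10l).

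**Figure D3:**
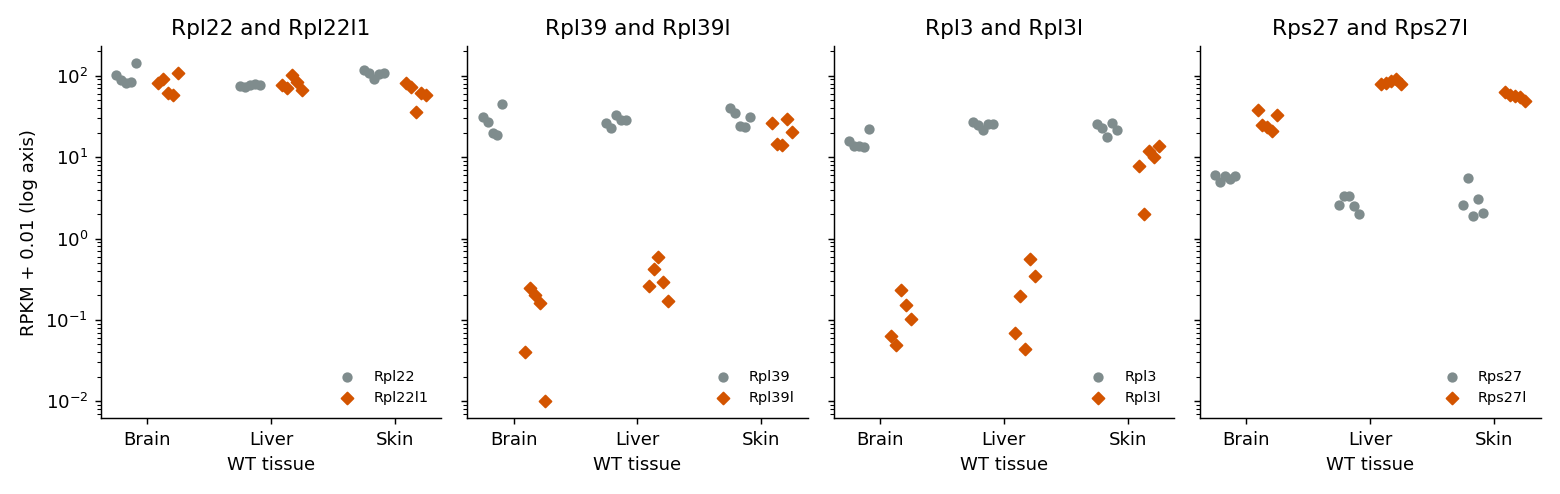
Levels of 4 parent genes (grey circles) and their paralogs (orange diamonds) in the 5 WT mice, as RPKM plus 0.01 on a log axis, by tissue. Rpl39l and Rpl3l rise from below 1 RPKM in brain and liver to 2.01 RPKM or more in skin, while the ranges of Rpl22 and Rpl22l1 overlap in brain and liver.

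In brain, all 80 members tested were lower in KI than in WT mice, with a median log2 fold change of -0.85 against -0.02 over all genes, and both KI values lay below all 5 WT values for 64 of them, beside 15.8% of all genes. No member was called by edgeR at an adjusted p under 0.1, where the share of all genes called was 0%. At an unadjusted p under 0.05, 42 members were lower, beside 7.81% of all genes, and DESeq2's Wald test called 24 lower, beside 3.03%. The medians were -0.85 for the 47 large-subunit and -0.93 for the 33 small-subunit genes.

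The WT 5 brain stood apart, as its share of counts showed. Without WT 5, edgeR called 40 members lower, 19 of the large and 21 of the small subunit, beside 6.32% of all genes, with 79 of 80 below 0 and a median of -0.57. Other short mRNAs were also lower in the KI brains, with medians from -0.55 in the shortest to 0.13 in the longest class without WT 5. Among genes that are no member, the median log2 fold change over all mice was -0.82 for transcripts of at most 500 bases, -0.64 above 500 and up to 1000 bases, -0.26 up to 2000 bases, -0.01 up to 4000 bases and 0.19 above 4000 bases, whereas the medians of the members in these classes were -1.09 (n = 13), -0.85 (n = 44), -0.78 (n = 15), -0.92 (n = 5) and -0.57 (n = 2). The 2 members above 4000 bases are Rpl24 and Rps15a and 1 of the 5 in the class before is Rps20, all with the long or readthrough annotated forms named above, so their place in these classes rests on those lengths. In the class of Rps20, Rpl18 (567 of 2987 bases coding) and Rpl5 (894 of 2045) also have annotated forms much longer than their coding sequence. The median transcript of the members tested was 833 bases long and that of all genes tested 2848 bases. With an offset for transcript length in each library the median of members was -0.24 with 65 of 80 below 0 and none called, and with that offset and without WT 5 it was -0.21 with 62 of 80 below 0 and 16 called lower, beside 3.06% of all genes. Of these 16, 15 were among the 40, all but Rps15a, so the size of the decrease depends on how length is treated.

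**Figure D4:**
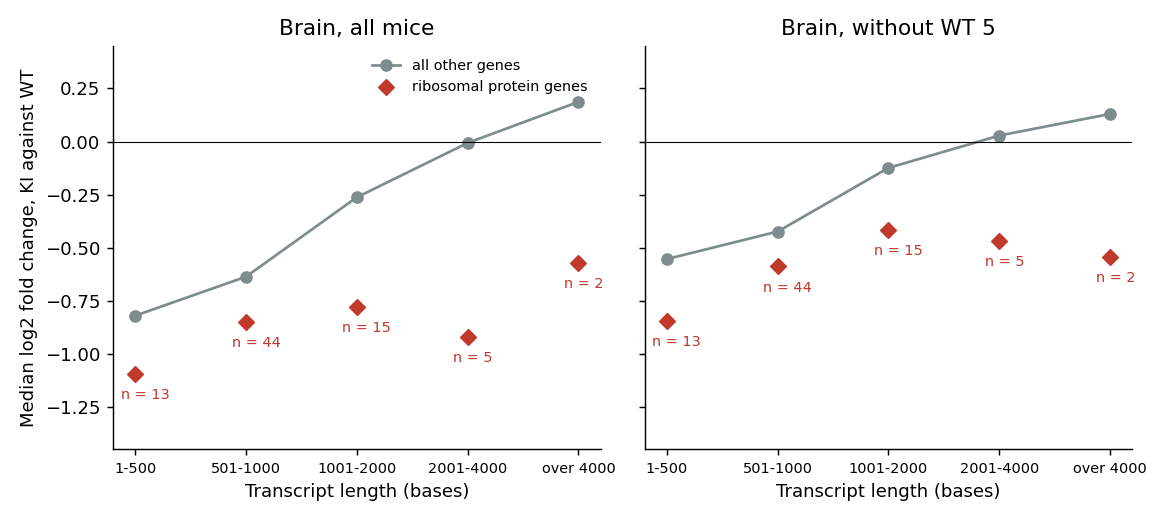
Median log2 fold change of KI against WT brain by transcript length class, for all genes that are no member (grey line) and for members (red diamonds, with their number), over all mice at left and without WT 5 at right. Other genes rise from -0.82 in the shortest class to 0.19 in the longest over all mice, and members lie below them in every class, of which the longest holds only Rpl24 and Rps15a by their long annotated forms.

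The KI brains also had fewer alignments to more than 1 place, at 18% and 17.1% against 20.5% to 24.0% in WT brains, without overlap. Members with under 10% of windows recurring had a median log2 fold change of -0.75 with 11 of 11 below 0, and those with 90% or more had -0.64 with 7 of 7 below 0. Skeletal muscle markers summed to 10.3 and 8.07 CPM in KI and 10.6 to 53.3 CPM in WT brains, and erythroid markers to 4.88 and 5.92 CPM against 5.79 to 17.6 CPM. The hepatocyte list (Alb, Apoa1, Ttr, Afp and Trf) summed to 894 and 992 CPM in KI brains, 2582 CPM in WT 5 and 53.2 CPM in the lowest WT brain. Of its 5 genes 2 were called higher in WT brain than in WT skin and 2 lower, so this sum in brain need not come from hepatocytes. Neuron markers summed to 5785 and 5213 CPM in KI against 5890 to 7496 CPM in WT brains, and fibroblast markers to 353 and 371 CPM against 104 to 797 CPM. Epidermis markers, at 50.3 and 48.5 CPM in KI against 58.6 to 108 CPM in WT brains, and leukocyte markers, at 14.3 and 12.1 CPM against 14.4 to 22.4 CPM, did not overlap. None of the markers was called between KI and WT brain. Their part in the result was not tested.

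Rps7, a small-subunit protein, had the smallest p in brain. It was at 23.3 and 21.5 CPM in KI and at 51.2, 41.2, 37.3, 36.02 and 47.5 CPM in WT mice, so that the KI values lay well below every WT value, for a log2 fold change of -0.93 (SE 0.18, edgeR adjusted p = 0.255). Rpl32, of the large subunit, was at 149 and 137 CPM in KI and 345, 272, 238, 239 and 355 CPM in WT brains, again without overlap, for a log2 fold change of -1.02 (SE 0.20, edgeR adjusted p = 0.255).

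Rpl22l1 was at 20.7 and 15.4 CPM in KI and 48.9, 53.3, 37.3, 34.8 and 65.9 CPM in WT brains, without overlap, for a log2 fold change of -1.41 (SE 0.29, edgeR adjusted p = 0.255). Its parent Rpl22 was at 195 and 177 CPM against 203 to 368 CPM (log2 fold change -0.44, SE 0.24). The ratio of Rpl22l1 to Rpl22 was therefore 0.443 and 0.364 in the KI brains, below the WT brains at 0.679 to 1.01, while the ratios of the KI livers and skins lay within the WT ranges. For Rps4l and Rps4x the order was the opposite, with a ratio of 1.25 and 1.28 in KI brains above 0.655 to 0.995 in WT brains. The transcripts of Rpl22l1 and Rpl22 are 489 and 2051 bases long. With the length offset the log2 fold changes were -0.58 for Rpl22l1 and -0.31 for Rpl22, and without WT 5 as well -0.62 and -0.22. The gap between these 2 genes in the KI brains thus depends on how length is treated.

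Among the 5 largest decreases, beside Rpl22l1, were those of Rps28, at 0.474 and 0.639 CPM against 1.20 to 2.63 CPM (-1.69, SE 0.43), Rpl39, at 6.89 and 7.55 CPM against 14.2 to 34.4 CPM (-1.57, SE 0.38), Rps21, at 11.4 and 10.4 CPM against 18.1 to 45.7 CPM (-1.35, SE 0.38), and Rps24, at 62.3 and 54.2 CPM against 103 to 251 CPM (-1.27, SE 0.38), none of them called. KI and WT values did not overlap for any of these genes, and all 4 were called without WT 5, at log2 fold changes of -1.50, -1.32, -1.08 and -0.94. Mutations of human RPS28 and RPS24 are known from Diamond-Blackfan anaemia. At the other end stood Rpl28 (-0.10, SE 0.27), Rpl10 (-0.16, SE 0.29) and Rpl27 (-0.17, SE 0.33), for which the groups overlapped, and Rps15a (-0.19, SE 0.12), for which they did not. Rpl27 was the 1 member above 0 without WT 5 (0.07, SE 0.22). Under the length offset 15 members turned above 0, up to 0.50 for Rpl27, 0.47 for Rpl28 and 0.43 for Rpl23a, with Rpl10 at 0.33 and Rps4l at 0.23.

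With both the length offset and WT 5 left out, the 16 members called lower were Rpl13a, Rpl15, Rpl22l1, Rpl23, Rpl24, Rpl32, Rpl37, Rpl39, Rpl41, Rps3, Rps4x, Rps7, Rps15a, Rps20, Rps24 and Rpsa. They ranged from a log2 fold change of -1.01 (SE 0.22) for Rpl24 and -0.97 (SE 0.15) for Rps20 to -0.30 (SE 0.08) for Rpl32. Their edgeR adjusted p ran from 0.0706 for Rpl41, Rps20 and Rps24 to 0.09999 for Rpl15, close to the threshold of 0.1. The offset used the long annotated forms of Rpl24, Rps20 and Rps15a and moved them away from 0, from -0.88, -0.89 and -0.20 without it. Rps15a was called only with it, so these 3 values rest on those lengths. Rps3 (732 of 1908 bases coding), Rpl15 (615 of 1922) and Rpsa (888 of 1861) also had annotated forms longer than their coding sequence. The offset moved these genes only from -0.52, -0.38 and -0.42 to -0.47, -0.32 and -0.36, so their calls depend on the annotated lengths as well. Rpl41 has no transcript in the annotation used and so received no length offset. Rpl39 was at -0.76 (SE 0.18), Rpl22l1 at -0.62 (SE 0.15) and Rps7 at -0.53 (SE 0.11) in that fit.

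Genes of related function were examined in brain as well, where 6.32% of all genes were called lower without WT 5. The 4 ribosomal protein genes tested outside the symbol rule, among them Fau (made as a fusion with a ubiquitin-like protein), Gnb2l1 (RACK1) and Rpl36al, were all below 0, with a median of -0.76, and Gnb2l1 (-0.32) and Rpl36al (-1.07) were called lower without WT 5. All 24 mitochondrial ribosomal protein genes listed were below 0 with a median of -0.78, and 16 were called lower without WT 5. These encode the ribosome of the mitochondrion. Of 16 translation factors and other genes with TOP mRNAs, 13 were below 0 with a median of -0.42, and without WT 5 the 5 called lower were Naca (-0.62), Btf3 (-0.53), Eef1b2 (-0.63), Npm1 (-0.59) and Eif3e (-0.59). Eef2 (0.09) and Pabpc1 (0.04), which are TOP mRNAs too, were not called. Of 26 ribosome biogenesis genes 19 were below 0 with a median of -0.20 and 2 were called lower without WT 5, Nop10 (-1.02) and Polr1c (-0.35), a share near that of all genes. Of 12 regulators of ribosomal protein mRNAs 7 were above 0 with a median of 0.09, and Rptor, the mTORC1 subunit, was at 0.38 (SE 0.09) without WT 5. None of these lists had a gene called over all mice by edgeR. Values with the length offset are not given for these lists. Among all genes that are no member, 88.8% of those with transcripts of at most 500 bases were below 0 over all mice. Above 500 and up to 1000 bases it was 91.3%, with a median of -0.64, so a list of short mRNAs lying below 0 is not particular to its function.

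In liver, members leaned the other way and by less. Of 82 members tested 68 were above 0 in KI mice, with a median log2 fold change of 0.18 against -0.02 over all genes, and both KI values lay above all WT values for 34 members, beside 13% of all genes. No member was called by edgeR in either direction, beside 5.57% of all genes. At an unadjusted p under 0.05, 19 members were higher and none lower, beside 9.49% of all genes higher, and DESeq2's Wald test called 5 higher, beside 5.31%. The medians were 0.15 for the 49 large-subunit and 0.22 for the 33 small-subunit genes, and 0.08 for all members with the length offset.

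Rpl23, a large-subunit protein, had the smallest p. It was at 114 and 99.9 CPM in KI and 82.7, 79.6, 91.6, 76.4 and 87.4 CPM in WT livers, without overlap, for a log2 fold change of 0.36 (SE 0.10, edgeR adjusted p = 0.101), just outside the threshold. With DESeq2 size factors in edgeR it was called (adjusted p = 0.0936), as it was by DESeq2, with an offset for GC content and without WT 4. Rpl13a was at 177 and 166 CPM against 130 to 152 CPM (0.29, SE 0.09) and Rps20 at 135 and 126 CPM against 99.6 to 116 CPM (0.29, SE 0.09), both without overlap. DESeq2 called these 2 genes as well. Large fold changes belonged to members of low counts, among them Rps13 (0.62, SE 0.44), Rpl36a (0.50, SE 0.50), Rpl35a (0.49, SE 0.28) and Rpl28 (0.47, SE 0.50), of which the groups overlapped for Rpl36a and Rpl28, and Rpl36a turned to -0.12 without KI 1. Leukocyte markers summed to 4457 and 5741 CPM in KI against 2853 to 3806 CPM in WT livers, with 4 of 5 called higher, and erythroid markers to 2394 and 2279 CPM against 2669 to 3711 CPM, with 1 called lower. Hepatocyte markers summed to 180739 and 175190 CPM against 175460 to 215178 CPM. Their part in the result was not tested.

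In skin, 62 of 82 members tested were below 0 in KI mice, with a median log2 fold change of -0.09 against -0.03 over all genes. No member was called by edgeR, beside 0.0247% of all genes, none was lower at an unadjusted p under 0.05, beside 1.68%, and DESeq2's Wald test called none. Both KI values lay below all WT values for 4 members, beside 4.84%. Rps29, a zinc-binding small-subunit protein, was at 2.40 and 2.66 CPM in KI and 4.90, 3.59, 3.43, 3.30 and 3.63 CPM in WT skins, without overlap (-0.57, SE 0.27, edgeR adjusted p = 0.999). Rps16 was at 20.2 and 24.4 CPM against 22.8 to 29.9 CPM (-0.30, SE 0.15), which overlapped. Rpl11 (-0.54, SE 0.44), Rps12 (-0.44, SE 0.31), Rpl9 (-0.41, SE 0.37) and Rpl28 (0.39, SE 0.59) had large fold changes with overlapping groups, and Rpl28 turned to -0.16 without KI 2. Rpl39l (-0.15, SE 0.31) and Rpl3l (-0.26, SE 0.60) did not pass the test. Leukocyte markers summed to 123 and 166 CPM in KI against 67.4 to 120 CPM in WT skins and erythroid markers to 9.61 and 14.7 CPM against 15.1 to 32.1 CPM, both without overlap, and epidermis markers to 13533 and 850 CPM in the 2 KI skins against 1447 to 16497 CPM. No marker was called between KI and WT skin, and their part in these values was not tested.

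**Figure D5:**
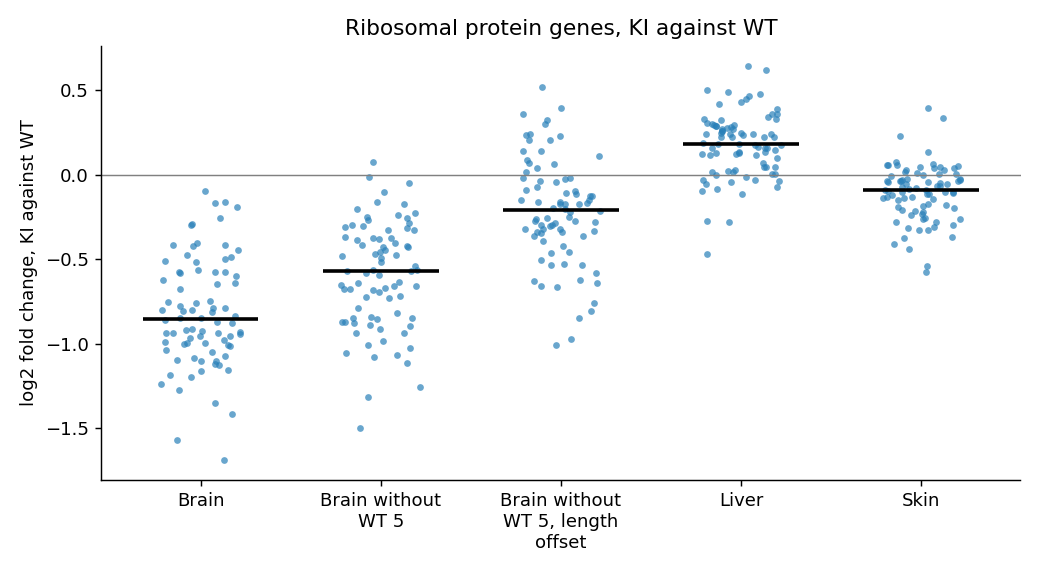
Each point is a member's log2 fold change of KI against WT, and each black line the median of members, for brain over all mice, brain without WT 5, brain without WT 5 with the length offset, liver and skin. The medians are -0.85, -0.57, -0.21, 0.18 and -0.09.

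The KI effects of 2 tissues were also compared directly, as the difference of their log2 fold changes in 1 fit of all 21 libraries. Between brain and liver 18 members were called, all lower in brain, beside 2.81% of all genes in either direction. The largest differences were those of Rpl39 (-1.92, SE 0.39), Rpl22l1 (-1.67, SE 0.38), Rps21 (-1.52, SE 0.37) and Rps24 (-1.47, SE 0.36), of which Rps21 was not called by limma with the library number as a block (adjusted p = 0.106), and Rps27l was among those of smallest p (-1.25, SE 0.25, edgeR adjusted p = 0.0314). Without the WT 5 brain 28 were called, all 18 among them, beside 5.74% of all genes. With the length offset 4 were called, beside 0.637%, and with the length offset and without the WT 5 brain 7 were, beside 1.53%, 6 of them among the 18. All 18 kept a negative sign in each of these fits. Between brain and skin no member was called by edgeR or by limma with the library number as a block (0% of all genes by edgeR), though 27 were lower in brain at an unadjusted p under 0.05, beside 4.12% of all genes. Between liver and skin no member was called by either tool, beside 0.0997% of all genes by edgeR. There 1 member was higher in liver at an unadjusted p under 0.05, beside 2.44% of all genes.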

How the data were processed

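Total RNA of newborn mouse brain, liver and skin was made into unstranded TruSeq v2 libraries and sequenced as paired reads by the authors, who aligned trimmed reads to mm9 with TopHat2. The authors deposited 1 table of whole-number counts per library, with a row per gene symbol, and the submitters' processing notes name HTSeq, TopHat and DESeq without versions. The annotation and counting settings are not given in the sources used here. The 5 closing lines of each table, which name no gene and held 30.4% to 38.1% of the reads tallied, were left out of library sizes and tests.

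Counts were filtered (filterByExpr), scaled by TMM and tested with edgeR 4.0.16 in R 4.3.3 (quasi-likelihood test, 2-sided, Benjamini-Hochberg adjusted over all genes tested, called under 0.1), with KI against WT within each tissue, WT tissues in 1 fit of 15 libraries, and differences of KI effects in 1 fit of 21. RPKM used the mm9 transcript of longest coding sequence in GENCODE vM1, which annotated 83 of 84 members. Alternatives used DESeq2 1.42.0, limma 3.58.1, other scalings and filters, length and GC offsets (lowess, span 0.3) and left-out libraries. Windows of 75 bases were matched exactly to mm9 on both strands. The tests recovered known changes in simulated data, which had the same spread for every gene and no library standing apart. The simulated data thus cannot show what the tests recover at the spread of the WT brains.

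The members, gene lists and tests were chosen with earlier results of these data known. Genes named were the paralogs and their parents, members of special role, in each KI comparison the 5 largest changes and 3 smallest p, in each WT comparison the 3 highest and 3 lowest, and the 5 highest and 5 lowest levels; some genes these rules pick are not reported here, and others named with the windows, overlaps, called sets and lists were picked after their values were seen. The study names 2 KI and 5 WT mice, and no source used here ties a number to 1 mouse across tissues, so the number was used as a block only in alternatives.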

Additional observations from a re-analysis of the deposited data

Results flagged for a closer look

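In groups of 5 WT libraries, 154 combinations of gene or share and tissue were examined for a library standing apart, by Dixon's ratio of the gap to the whole range (critical value 0.71), and 17 passed, where chance passes about 1 in 20. The WT 5 brain was the library apart in 11 of them, at the high end, among them with ratios of 0.941 for Rpsa, 0.866 for Rpl4, 0.86 for Rpl8, 0.774 for Rps4l, 0.767 for Rpl13a, 0.75 for Rplp2, 0.732 for Rps15, 0.731 for the share of counts on members, 0.728 for Rplp1 and 0.717 for Rplp0. In liver, Rpl7 was low in WT 3 (0.798) and Rplp1 low in WT 2 (0.748). In skin, Rpl3l (0.712) and Rpl7l1 (0.815) were low in WT 2, Rps29 was high in WT 1 (0.759) and Rps16 low in WT 3 (0.721).

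The KI effect differed between brain and liver for 18 members by the edgeR test of the difference of log2 fold changes, lower in brain for each. Among these were Rpl22l1 (-1.67), Rpl23 (-1.26), Rpl32 (-1.13), Rpl37 (-1.38), Rpl37a (-1.38), Rpl39 (-1.92), Rpl41 (-1.23), Rpl7 (-0.793), Rps14 (-1.32), Rps20 (-1.30), Rps21 (-1.52), Rps24 (-1.47), Rps26 (-1.37), Rps27l (-1.25), Rps4x (-1.02) and Rps7 (-1.10).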

How the results depend on the processing

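In brain, 0 members were called lower over all 7 libraries by edgeR. The count was 24 by DESeq2, beside 3.03% of all genes, 24 with all 21 libraries in 1 fit and 42 with the replicate block. Without WT 5 it was 40, beside 6.32% of all genes, and without any other WT library it was 0. Alternatives chosen after seeing the data, each without WT 5, gave 49 by DESeq2, 41 with the GC offset and 16 with the length offset. The last count stood beside 3.06% of all genes. For counts printed without such a share, the share of all genes called is not given here, so they are not read as a result about members. The median of members was -0.93 to -0.57 with 1 library left out, -0.24 with the length offset and -0.21 with that offset and without WT 5. Rpl10 turned to 0.33 and Rps4l to 0.23 with the length offset, to 0.14 and 0.23 with the offset and without WT 5, and Rpl10 ranged from -0.32 to 0.0023 (without KI 1) with 1 library left out.

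In liver, 0 members were called higher, against 5 by DESeq2, beside 5.31% of all genes. The count was 1 with DESeq2 size factors, 2 with the GC offset, 2 with the replicate block and 2 without WT 4. The shares of all genes called are not given here for these 4 settings. The median was 0.0751 with the length offset. With 1 library left out Rpl36a ranged from -0.12 (without KI 1) to 0.95. Under the block Rpl28 turned to -0.00015 in liver and to -0.19 in skin, where it ranged from -0.16 (without KI 2) to 0.83 with 1 library left out. Adding pseudogene counts raised the liver shares to 0.665% in KI and 0.580% in WT mice.

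With library totals, the calls in WT brain against liver were 50 higher and 1 lower with a median of 0.56, and in WT liver against skin 0 higher and 71 lower with a median of -0.82 and Rps2 at -0.0825. With the libraries of 1 number left out, members lower in WT brain than liver numbered 15 to 43 (15 without WT 2, 18 without WT 3, 18 without WT 4) and in WT liver than skin 8 to 20 (20 without WT 5). The shares of all genes called are not given here for library totals or for these left-out libraries. Members with a lower KI effect in brain than liver numbered 28 without the WT 5 brain, 4 with the length offset and 7 with both, all chosen after seeing the data.

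KI and WT mice with the same number share only that number (2 pairs, r from -0.095 to 0.198), so the block was not taken as a pairing there. Libraries of the same number in different tissues correlated at r = 0.002 to 0.188 in their deviations over genes (0.068 in limma), not above 0.1 for every pair. With that number as a block in the WT tissues and in the differences of KI effects, no count of members called moved by more than 1.5 times. The causes of these changes were not tested. Members of few counts, such as Rps28, Rps13 and Rpl36a, are limited by depth.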
